A study of Mus musculus with 18 samples.

Results

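The genes described here are 10 receptor genes, those for the interleukin and interferon receptor chains outside the IL-2 receptor that were picked by symbol: Il4ra, Il21r, Il10ra, Il7r, Il6ra, Il6st, Ifngr1, Il18rap, Il1r1 and Il1rl1. They are 10 of the 36528 entries in a table of RNA levels, taken by symbol but with earlier results of these data known. The RNA came from spleen CD4 T cells of NZB/W F1 females, lupus-prone hybrid mice aged 21 to 27 weeks and with proteinuria of 30 to 100 mg/dL. Cells were enriched by depleting other cell types and cultured for 48 h at 250000 per well, always with IL-2 at 10 U/mL. Each culture received an IgG1 antibody against Ox40 (a costimulatory receptor of the TNF receptor superfamily) or an isotype control IgG1, here called control Ig, at 25 µg/mL. Beads carrying anti-CD3 and anti-CD28, which engage the T cell receptor complex and its costimulatory receptor, were given at 0, 0.1 or 1 per cell, here called no, low and high beads. The antibody and the bead dose make 6 groups of 3 libraries, and the series addressed what Ox40 engagement adds to T cell receptor stimulation. Every group contained IL-2, so no group shows cells without it.

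Most interleukin receptors are built from a chain that binds one cytokine and a chain shared among several cytokines, and they signal through JAK kinases and STAT factors. IL-7 receptor signalling keeps resting T cells alive, IL-4 drives Th2 differentiation, IL-21 supports follicular helper T cells and B cell help, IL-6 supports Th17 and follicular helper differentiation, and IL-10 and interferon gamma restrain or polarise T cells. The receptors for IL-1, IL-18 and IL-33 form a separate family that signals through MyD88 and IRAK kinases.

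The identity of the cells was checked on marker genes. Cd4 had a mean level of 308 ± 16.6 nRPKM (SD, n = 3; RPKM normalized further by the authors) in control Ig without beads and 193 ± 3.07 with high beads, and Cd3e had 257 ± 4.16 and 218 ± 12.3. The 2 CD8 T cell genes summed to between 4.36 and 6.95 nRPKM in every library, and none of the 8 CD4 T cell markers in the table was at 0 anywhere. An nRPKM of 1 over 1 kb stood for 26.4 to 46.0 reads, depending on the library. In every group, replicate 3 had the highest sum of 9 B cell markers, for example 53.6 nRPKM against a next value of 7.90 in control Ig with low beads, and 12.3 against 4.38 with high beads. These 6 libraries are called rich in B cell markers below, which holds only within each group. The one with anti-Ox40 and high beads had 7.02 against 4.46, below the 8.40 of control Ig replicate 1 without beads. Results without these 6 libraries, a setting chosen after seeing the data, stand beside those that they change.

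The genes lie at few places in the genome (GRCm38, GENCODE M21). Il4ra (chromosome 7, 125552120 to 125579474, plus strand) and Il21r (125603429 to 125633570, plus strand) are direct neighbours 23954 bp apart. On chromosome 1, Il1r1 (40225080 to 40317257), Il1rl1 (40429570 to 40465415) and Il18rap (40515362 to 40551705) lie in one cluster on the plus strand, with Il18r1, the partner chain of Il18rap, between the last 2. The others are Il6ra (chromosome 3, 89864059 to 89913196, minus strand), Il6st (chromosome 13, 112464070 to 112510086, plus strand), Il7r (chromosome 15, 9505788 to 9530176, minus strand), Il10ra (chromosome 9, 45253837 to 45269149, minus strand) and Ifngr1 (chromosome 10, 19591949 to 19610229, plus strand). The library kit does not keep the strand, so reads of Il4ra and Il6ra cannot be told apart from those of antisense genes annotated over them, Gm44876 and Gm42809. The same holds for Il10ra and the pseudogene Gm20612 on its other strand. Mir7086 lies over Il10ra and Gm38070 over Il1r1, each on the strand of the receptor gene.

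RefSeq promoter windows (GRCm38.p6, 250 bases before to 50 after a start) were found for 9 of the 10 genes. The neighbours Il4ra and Il21r are shown because both were higher with beads while their starts differ in CpG content. The 300-base window of Il4ra held 25 CpG and that of Il21r held 7, against a median of 7 (interquartile range 3 to 20) over 32851 windows. The window bases before the GENCODE start read as follows, on the plus strand and with CpG in capitals. For Il4ra these are only 99 bases, which hold 6 of the 25 CpG, because its RefSeq start lies inside the gene as GENCODE draws it. For Il21r they are 250 bases.
Il4ra, chr7:125552021-125552119: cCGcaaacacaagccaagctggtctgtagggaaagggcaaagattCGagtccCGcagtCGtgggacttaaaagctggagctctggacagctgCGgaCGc
Il21r, chr7:125603179-125603428: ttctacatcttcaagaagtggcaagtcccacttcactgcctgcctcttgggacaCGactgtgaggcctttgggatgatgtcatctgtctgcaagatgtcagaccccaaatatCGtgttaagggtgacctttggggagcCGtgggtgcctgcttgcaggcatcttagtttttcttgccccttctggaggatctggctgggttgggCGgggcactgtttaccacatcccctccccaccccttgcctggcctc

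Among the genes that were lower with beads, Il6st had 33 CpG, Il6ra 25 and Ifngr1 14, whereas Il18rap had 4 and Il7r 1. The elements searched, on both strands, were TTC, 3 bases, GAA (bound by STAT factors), TTC, 4 bases, GAA (the spacing preferred by STAT6) and TGA, any base, TCA (AP-1). The 3 elements occur in 8.30%, 6.95% and 7.81% of all windows. Only 2 matches were found, the first kind in Il7r at position -142 from the RefSeq start and the second in Il18rap at position -167, and they are shown in capitals because these genes had the largest decreases with beads. The Il7r start used by RefSeq lies inside the gene as GENCODE draws it. A match is a description of these letters and not evidence of binding.
Il18rap, chr1:40515112-40515361, plus strand: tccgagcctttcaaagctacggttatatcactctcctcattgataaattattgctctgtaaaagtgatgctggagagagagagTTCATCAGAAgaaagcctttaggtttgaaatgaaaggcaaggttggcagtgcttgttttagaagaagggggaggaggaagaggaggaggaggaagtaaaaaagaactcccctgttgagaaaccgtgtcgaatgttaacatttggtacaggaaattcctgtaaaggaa
Il7r, chr15:9529999-9530028, minus strand: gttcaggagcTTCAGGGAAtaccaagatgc

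**Figure D1:**
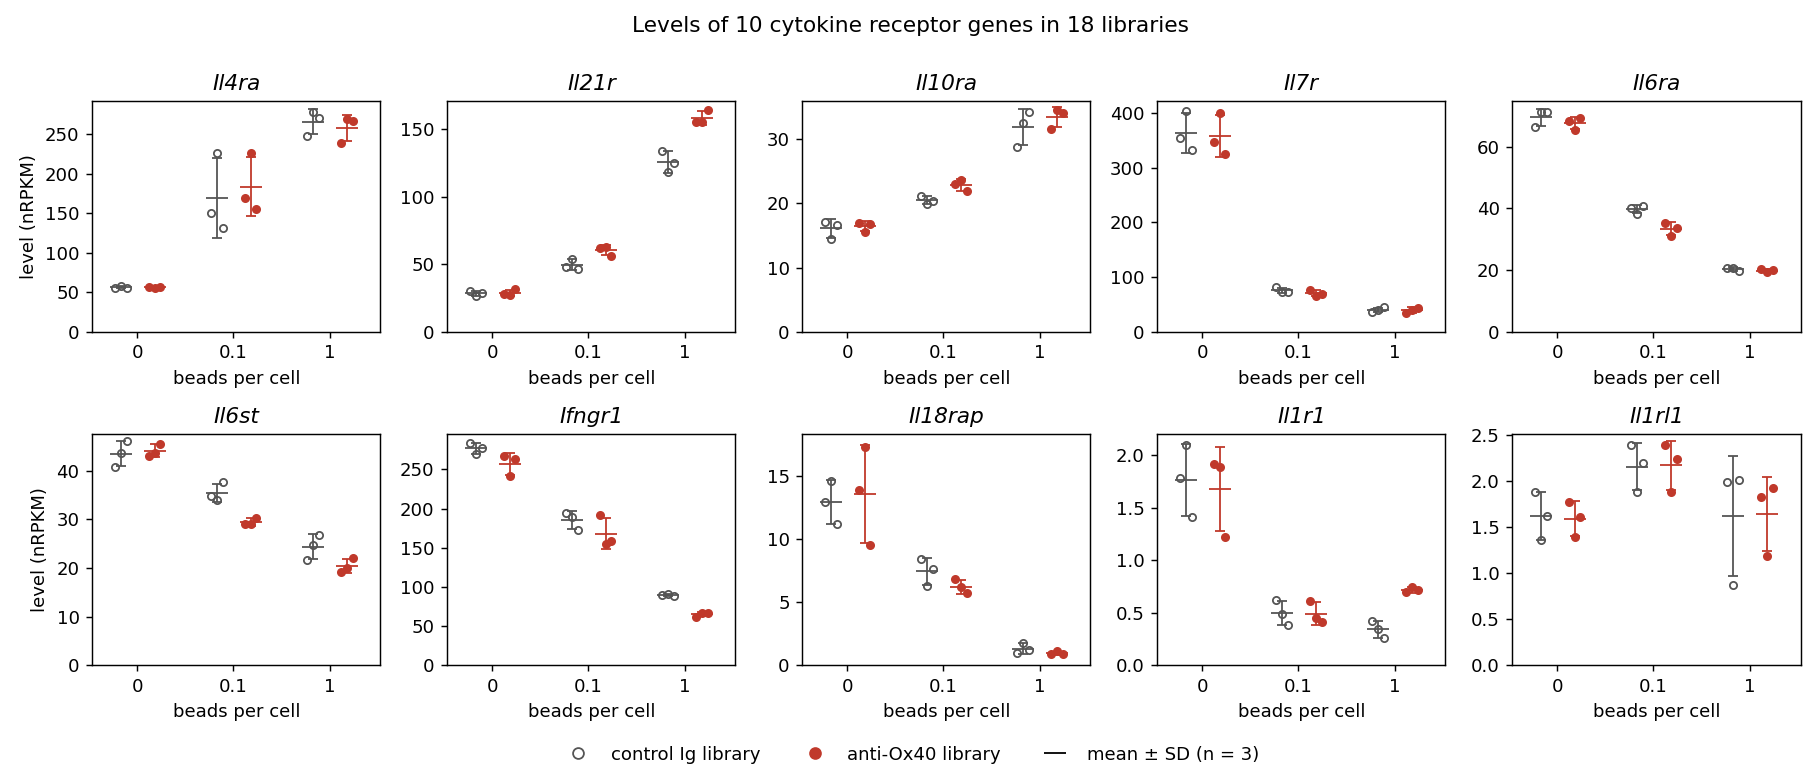
Level (nRPKM, linear axis from 0) of each of the 10 receptor genes at 0, 0.1 and 1 beads per cell, with open grey points for control Ig libraries, filled red points for anti-Ox40 libraries, and bars for mean ± SD (n = 3). Il4ra, Il21r and Il10ra stand higher with beads and Il7r, Il6ra, Il6st, Ifngr1, Il18rap and Il1r1 lower, while Il1rl1 stays between 0.869 and 2.39 nRPKM.

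Bead stimulation moved 9 of the 10 genes in control Ig cells. With high against no beads, 3 genes were higher (Il4ra, Il21r, Il10ra) and 6 were lower (Il7r, Il18rap, Il6ra, Ifngr1, Il1r1, Il6st) at an adjusted p under 0.05 with limma. Of all 13075 genes tested, 82.3% were called in that comparison, 43.4% higher and 38.9% lower, so the share of receptor genes called is near the background. Their median log2 difference was -0.92, beside 0.04 over all genes. Low against no beads called 9 (background 62.3%) and high against low beads called 8 (background 72.5%). In anti-Ox40 cells the counts were 9, 8 and 9 for low against no, high against low and high against no beads, with backgrounds of 70.8%, 71.5% and 84.5%. Il1r1 reached 1 nRPKM only without beads and so entered the test through those libraries, which favours a decrease. The counts and the median that include it are therefore only a description. An nRPKM is relative to the other RNA of its library and is not an amount of RNA per cell. A lower level in these bulk cultures can come, among others, from less RNA per cell or from fewer cells of a type, which cannot be told apart.

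Markers of other cells moved with the bead dose beside these results. In control Ig libraries, the sum of 11 myeloid markers was 235 to 269 nRPKM without beads, 18.9 to 24.5 with low and 5.04 to 11.5 with high beads. The sum of 6 NK cell markers was 31.9 to 39.9, 11.1 to 15.8 and 4.01 to 5.45. C1qa and C1qc were at 0 in at least 1 library of every group with beads, and none of the NK cell markers was at 0 in any library. The sums of 4 platelet markers (55.8 to 76.1, 37.9 to 46.3 and 9.72 to 13.0), of 4 markers of type 2 innate lymphoid cells (15.1 to 16.1, 10.6 to 11.5 and 5.37 to 5.86) and of 4 nuclear RNAs (512 to 667, 378 to 794 and 248 to 294) were also lowest with high beads. Most of the innate lymphoid sum without beads was 1 gene, Rora (means 12.4, 7.30 and 3.64 nRPKM at the 3 doses). Klrg1 also fell (1.16, 0.968 and 0.553). Il17rb was highest with low beads (1.82, 2.68 and 1.16) and Areg with high beads (0.142, 0.201 and 0.252). Foxp3, the lineage factor of regulatory T cells, had 93.3 ± 8.70 nRPKM without and 34.4 ± 8.96 with high beads, and Ikzf2, which many of them carry, 27.6 ± 2.65 and 5.96 ± 1.30. The sum of 4 regulatory T cell markers, these and Ctla4 and Il2ra, went the other way. It was 278 to 330 nRPKM without, 426 to 461 with low and 774 to 922 with high beads. Ctla4 had 109 ± 11.5 nRPKM without and 166 ± 17.3 with high beads. The part of these cells and RNAs in the decreases of receptor genes was not tested.

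Il7r, which encodes the chain that binds IL-7, had the highest level of the 10 genes in resting cells. Its level in control Ig was 354, 404 and 331 nRPKM without beads, 81.0, 72.3 and 73.5 with low beads, and 36.6, 39.3 and 44.4 with high beads. The 3 doses did not overlap, and most of the drop lay between no and low beads. The mean was 9.05-fold lower with high than with no beads, with a log2 difference of -3.15 (SE 0.11, limma adjusted p = 1.57e-13). With anti-Ox40 the levels were 347, 400.2 and 325 without beads, 76.3, 65.5 and 68.7 with low, and 33.5, 40.1 and 44.0 with high beads, overlapping those of control Ig at each dose.

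Il4ra encodes the chain that binds IL-4 and that also serves IL-13. Control Ig libraries had 55.7, 58.0 and 55.7 nRPKM without beads, 151, 227 and 131 with low beads, and 248, 278 and 270.4 with high beads. Each dose stood apart from the next, and the low dose was the least even. The coefficient of variation reached 29.9% there, against 2.34% without beads. Replicate 2 was the highest with low beads under both antibodies (227 in each). The same control Ig library had a Malat1 level of 173 nRPKM, below the 435 and 453 of the other 2. The anti-Ox40 replicate 2 had 248, between the 213 and 254 of its group. The part of Malat1 differences in the Il4ra level was not tested. The mean was 3.0-fold higher with low beads (log2 difference 1.53, SE 0.15, limma adjusted p = 4.23e-07) and 4.70-fold higher with high beads (2.21, SE 0.15, adjusted p = 1.21e-09) than with none. With anti-Ox40 the levels were 56.1, 55.1 and 57.1 without beads, 169, 227 and 155 with low beads, and 238, 269 and 266 with high beads. The step from low to high beads with anti-Ox40 (0.50, adjusted p = 0.00837) was not called without the 6 libraries rich in B cell markers (0.37, adjusted p = 0.101).

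Il21r encodes the chain that binds IL-21. In control Ig it had 30.4, 26.4 and 28.5 nRPKM without beads, 48.2, 54.0 and 46.6 with low beads, and 134, 118 and 125 with high beads. Unlike Il4ra, whose first step was the larger, Il21r had the larger step between low and high beads: the log2 differences were 0.78 (SE 0.07, limma adjusted p = 1.25e-07) for low against no beads and 1.32 (SE 0.07, adjusted p = 3.05e-10) for high against low beads. The corresponding differences of Il4ra were 1.53 and 0.68, and the contrast between the 2 genes was not tested. Across no to high beads Il21r rose 4.42-fold. With anti-Ox40, the level was 27.8, 27.1 and 31.4 without beads, 62.3, 62.5 and 56.3 with low beads, and 155, 155 and 164 with high beads.

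Il10ra, the chain that binds IL-10, had the smallest increase of the 3. Its control Ig libraries ranged from 14.5 to 17.1 nRPKM without beads, from 19.9 to 21.2 with low and from 28.8 to 34.2 with high beads. The doses did not overlap, and the mean rose 1.98-fold from no to high beads (log2 difference 0.94, SE 0.07, limma adjusted p = 1.54e-09). The anti-Ox40 ranges were 15.6 to 16.9, 21.9 to 23.6 and 31.6 to 34.6.

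The 2 chains of the IL-6 receptor fell by different amounts. Il6ra, which binds IL-6, had 66.2, 71.1 and 71.1 nRPKM without beads, 40.0, 38.2 and 40.7 with low, and 20.6, 20.6 and 19.7 with high beads in control Ig. Il6st, the signalling chain gp130 shared by the IL-6 family, had 40.8, 43.6 and 46.1, then 34.8, 34.0 and 37.6, then 21.7, 24.8 and 26.7. Neither gene overlapped between doses. The log2 difference of high against no beads was -1.72 for Il6ra (SE 0.05, limma adjusted p = 1.02e-14) and -0.81 for Il6st (SE 0.07, adjusted p = 1.24e-08), or 3.42-fold and 1.79-fold lower means. Il6ra thus lay above Il6st without beads and below it with high beads, per length of gene, in every control Ig library.

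Ifngr1 encodes the chain that binds interferon gamma. In control Ig its level was 284, 269 and 278 nRPKM without beads, 195, 189 and 172 with low beads, and 89.5, 90.4 and 88.7 with high beads. The step from low to high beads (log2 difference -1.04, SE 0.07, limma adjusted p = 3.33e-09) was larger than that from no to low beads (-0.58, SE 0.07, adjusted p = 2.68e-06), and the difference between the steps was not tested. The 3 libraries with high beads differed by under 2 nRPKM, with a coefficient of variation of 0.932%. Ifngr2, the second chain of the receptor, was not called between high and no beads (23.5 ± 1.49 and 21.3 ± 1.26 nRPKM, adjusted p = 0.281).

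Il18rap, the accessory chain of the IL-18 receptor, fell with each bead dose. Its control Ig levels were 13.0, 14.7 and 11.2 nRPKM without beads, 8.42, 6.34 and 7.64 with low beads, and 0.970, 1.79 and 1.18 with high beads. The mean was 1.74-fold lower with low beads and 9.88-fold lower with high beads than without (log2 differences -0.72, SE 0.17, limma adjusted p = 0.00161, and -2.60, SE 0.17, adjusted p = 5.04e-10). With anti-Ox40 the levels were 13.9, 17.4 and 9.53 without beads, 6.83, 6.20 and 5.73 with low, and 0.888, 1.10 and 0.871 with high beads, overlapping control Ig at each dose. Il18r1, the chain that binds IL-18 and whose gene lies 14507 bp upstream, was at 59.2 ± 4.05, 32.8 ± 7.39 and 4.32 ± 0.303 nRPKM at the 3 doses (log2 difference of high against no beads -3.50, adjusted p = 1.21e-12). NK cells also carry the IL-18 receptor, and the NK cell marker sum given above moved in the same direction. Most of that sum without beads was 1 gene, Klrd1 (30.1 ± 2.69 nRPKM, and 2.94 ± 0.752 with high beads). Eomes, another of the 6, had 1.46 ± 0.347, 3.74 ± 0.389 and 0.898 ± 0.151 at the 3 doses. The part of NK cells in the Il18rap level was not tested.

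Il1r1, the signalling receptor for IL-1, and Il1rl1, the ST2 chain that binds IL-33, were the 2 lowest of the 10 genes in control Ig without and with low beads, and Il1r1 was also the lowest with high beads. Estimated reads per library were 55.9 to 456 for Il1r1 and 203 to 757 for Il1rl1. Il1r1 had 1.78, 2.10 and 1.41 nRPKM without beads, 0.616, 0.490 and 0.384 with low, and 0.419, 0.349 and 0.261 with high beads in control Ig. It reached 1 nRPKM only in libraries without beads and so entered the test through them, which favours a decrease with beads. The log2 difference of low against no beads was -0.88 (SE 0.11, limma adjusted p = 6.01e-06), and high against low beads was not called (-0.16, 95% interval -0.40 to 0.09).

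Il1rl1 was not called in any bead comparison. Its control Ig levels were 1.88, 1.36 and 1.63 nRPKM without beads, 2.39, 1.89 and 2.19 with low, and 1.99, 0.869 and 2.01 with high beads. The low-bead libraries lay just above those without beads (log2 difference 0.27, 95% interval -0.07 to 0.61, limma adjusted p = 0.156). Replicate 2 was the lowest of its group at every dose and under both antibodies. High against low beads in control Ig (-0.30, adjusted p = 0.104) was called without control Ig high-bead replicate 1 (-0.41, adjusted p = 0.0467) or replicate 3 (-0.41, adjusted p = 0.0432), and was near 0 without replicate 2 (-0.07, adjusted p = 0.633). Mast cells and basophils carry ST2, and the sum of 6 of their markers was 5.95 to 7.32 without beads, 7.46 to 10.8 with low and 0.681 to 1.54 nRPKM with high beads, with Fcer1a at 0 in at least 1 library of the last group. Their part in the Il1rl1 level was not tested.

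**Figure D2:**
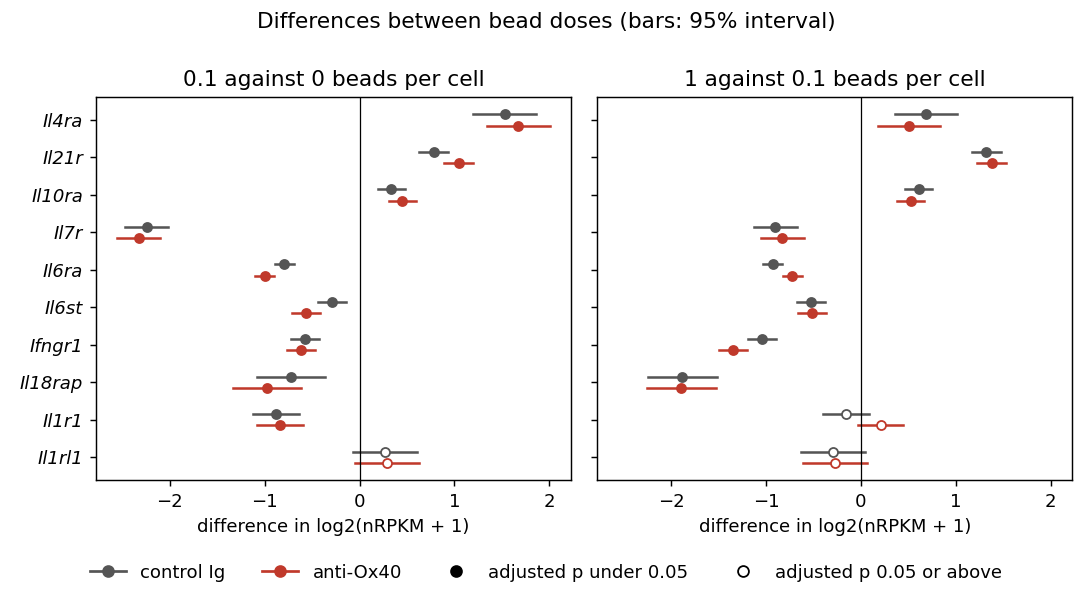
Difference in log2(nRPKM + 1) between bead doses for each gene (left, 0.1 against 0; right, 1 against 0.1 beads per cell), grey for control Ig and red for anti-Ox40, with 95% intervals; filled points had an adjusted p under 0.05. Il7r had its larger step at the first dose (-2.24 in control Ig), and Il18rap, Il21r and Ifngr1 at the second (-1.88, 1.32 and -1.04).

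Per length of gene, the order of the receptors turned over with stimulation. Without beads, Il7r (363 ± 37.1 nRPKM) and Ifngr1 (277 ± 7.17) led in control Ig, and Il4ra stood at 56.5 ± 1.32. With high beads, Il4ra (265 ± 15.7) and Il21r (126 ± 7.83) led, followed by Ifngr1 (89.5 ± 0.834) and Il7r (40.1 ± 3.97). With low beads, Ifngr1 (185 ± 11.5) and Il4ra (169 ± 50.6) came first, and their libraries overlapped.

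Without beads, none of the 10 genes was called for the antibody (limma, 0.138% of all genes called; 18 genes, and 519 at an unadjusted p under 0.05), and the log2 differences ran from -0.11 to 0.04, with 95% intervals reaching from -0.35 to 0.40. With low beads 3 of the 10 were called, against a background of 9.59%: Il21r higher (6.15% of all genes were), Il6ra and Il6st lower (3.44%). With high beads 4 of the 10 were called, against 26.0%: Il21r and Il1r1 higher (14.4% of all genes), Ifngr1 and Il6st lower (11.6%). Counts of this size among 10 genes were not tested against the background. The libraries of the 2 antibodies were fully apart for 1 of the 10 genes without beads, 4 with low and 3 with high beads, beside 9.22%, 25.9% and 43.3% of all genes. The median log2 difference over the 10 genes was -0.06 and -0.04 at these doses, beside 0.00 over all genes at both.

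Il21r was higher with anti-Ox40 at both bead doses. With low beads the 3 anti-Ox40 libraries (56.3 to 62.5 nRPKM) lay above the 3 control Ig libraries (46.6 to 54.0), and with high beads they also lay above (155 to 164 against 118 to 134). The log2 difference was 0.28 (SE 0.07, limma adjusted p = 0.0278) with low beads and 0.33 (SE 0.07, adjusted p = 0.00288) with high beads, which are 1.22-fold and 1.26-fold means. The call with high beads held under every setting tried. That with low beads was lost without control Ig replicate 1 or 3 or anti-Ox40 replicate 1 or 2 (adjusted p = 0.075 to 0.131). It was also lost without a filter on low genes (0.0595) and with only the 2 groups fitted (0.136). Without the 6 libraries rich in B cell markers the difference with low beads was 0.29 and not called (limma adjusted p = 0.289).

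Ifngr1 was lower with anti-Ox40 and high beads. Its level was 62.0, 67.0 and 66.4 nRPKM with anti-Ox40 and 89.5, 90.4 and 88.7 with control Ig, so that the groups stood well apart. The log2 difference was -0.45 (SE 0.07, limma adjusted p = 0.000309), a mean 27.2% lower, and it was called under every setting. Some other RNAs were lower in the same libraries. The sum of 8 CD4 T cell markers was 1478 to 1547 nRPKM with anti-Ox40 and high beads against 1715 to 1800.0 with control Ig. Among them Cd3g had 208 ± 23.3 against 288 ± 19.4, Lat 237 ± 5.82 against 245 ± 14.3, and Cd2 335 ± 5.05 against 324 ± 8.63. The 4 nuclear RNAs summed to 192 to 218 against 248 to 294, and the 4 platelet markers to 6.49 to 6.88 against 9.72 to 13.0. With low beads these 3 sums overlapped between the antibodies. The sum of 4 regulatory T cell markers was instead higher with anti-Ox40 and high beads, 947 to 1060 against 774 to 922 nRPKM. Of these 4, Foxp3 (25.8 ± 5.34 against 34.4 ± 8.96) and Ctla4 (124 ± 11.1 against 166 ± 17.3) had lower means. The part of these RNAs in the antibody results was not tested. Without beads the anti-Ox40 libraries had 267, 241 and 263 nRPKM, also below the 269 to 284 of control Ig, but the difference of -0.11 was not called. With low beads they had 191, 155 and 158, overlapping control Ig (-0.14, adjusted p = 0.181), and without anti-Ox40 replicate 1 this difference was called (-0.24, adjusted p = 0.0334).

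The 2 chains of the IL-6 receptor differed in the dose at which the antibody difference was called. With low beads, Il6ra had 35.3, 31.2 and 33.5 nRPKM with anti-Ox40, below the 38.2 to 40.7 of control Ig (log2 difference -0.25, SE 0.05, limma adjusted p = 0.00836). With high beads its libraries overlapped (20.2, 19.2 and 19.9 against 19.7 to 20.6), and the difference was -0.04 (95% interval -0.13 to 0.06). The change of the Il6ra difference from low to high beads was 0.21 (adjusted p = 0.089), which was not called. Il6st had 29.0, 28.9 and 30.4 nRPKM with anti-Ox40 and low beads, below the 34.0 to 37.6 of control Ig (-0.26, SE 0.07, adjusted p = 0.032). With high beads it had 19.1, 20.0 and 22.0 against 21.7, 24.8 and 26.7, which overlapped slightly (-0.25, SE 0.07, adjusted p = 0.0148).

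The 3 calls of these chains depended on the setting. The Il6ra call was lost without control Ig low-bead replicate 3 (adjusted p = 0.0526) and when only the 2 groups compared were fitted (0.122). The Il6st call with low beads was lost without any 1 of the 6 libraries compared except control Ig replicate 2 (limma adjusted p = 0.062 to 0.139), without a filter on low genes (0.0653) and when only the 2 groups were fitted (0.104). With high beads it was lost without anti-Ox40 replicate 1 or control Ig replicate 2 or 3 (adjusted p = 0.0545 to 0.086) and when only the 2 groups were fitted (0.0778). Both calls with low beads were also lost without the 6 libraries rich in B cell markers. The log2 differences were then -0.23 for Il6ra (limma adjusted p = 0.286) and -0.24 for Il6st (0.262).

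Il1r1, at low levels throughout, was higher with anti-Ox40 and high beads. It had 0.695, 0.746 and 0.711 nRPKM with anti-Ox40 against 0.419, 0.349 and 0.261 with control Ig, a mean 2.09-fold higher, and the groups did not overlap. The log2 difference, taken after adding 1 and so understated, was 0.36 (SE 0.11, limma adjusted p = 0.03). It lost its call without any 1 of the 6 libraries except control Ig replicate 1 (adjusted p = 0.0602 to 0.11) and without a filter on low genes (0.0525). Without the 6 libraries rich in B cell markers it was 0.31 and not called (limma adjusted p = 0.0766). With low beads the levels were 0.611, 0.452 and 0.408 with anti-Ox40, within the control Ig spread of 0.384 to 0.616. The change of the difference between low and high beads was 0.36 (adjusted p = 0.221).

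The remaining genes were not called for the antibody at any dose. Il7r, Il10ra, Il18rap, Il1rl1 and Il4ra had log2 differences between -0.22 and 0.15 with low beads and between -0.23 and 0.07 with high beads. The 95% intervals were widest for Il18rap, from -0.58 to 0.14 with low beads and from -0.59 to 0.13 with high beads. Il4ra with low beads had a difference of 0.14 (limma adjusted p = 0.594), which was 0.37 and called without control Ig replicate 2 (adjusted p = 0.0307) and lay just below 0 (-0.029 and -0.023) when control Ig replicate 3 or anti-Ox40 replicate 2 was left out. Il10ra with low beads had 23.1, 23.6 and 21.9 nRPKM with anti-Ox40, all above the 19.9 to 21.2 of control Ig, but the difference of 0.15 (95% interval 0.01 to 0.29) was not called (adjusted p = 0.152).

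**Figure D3:**
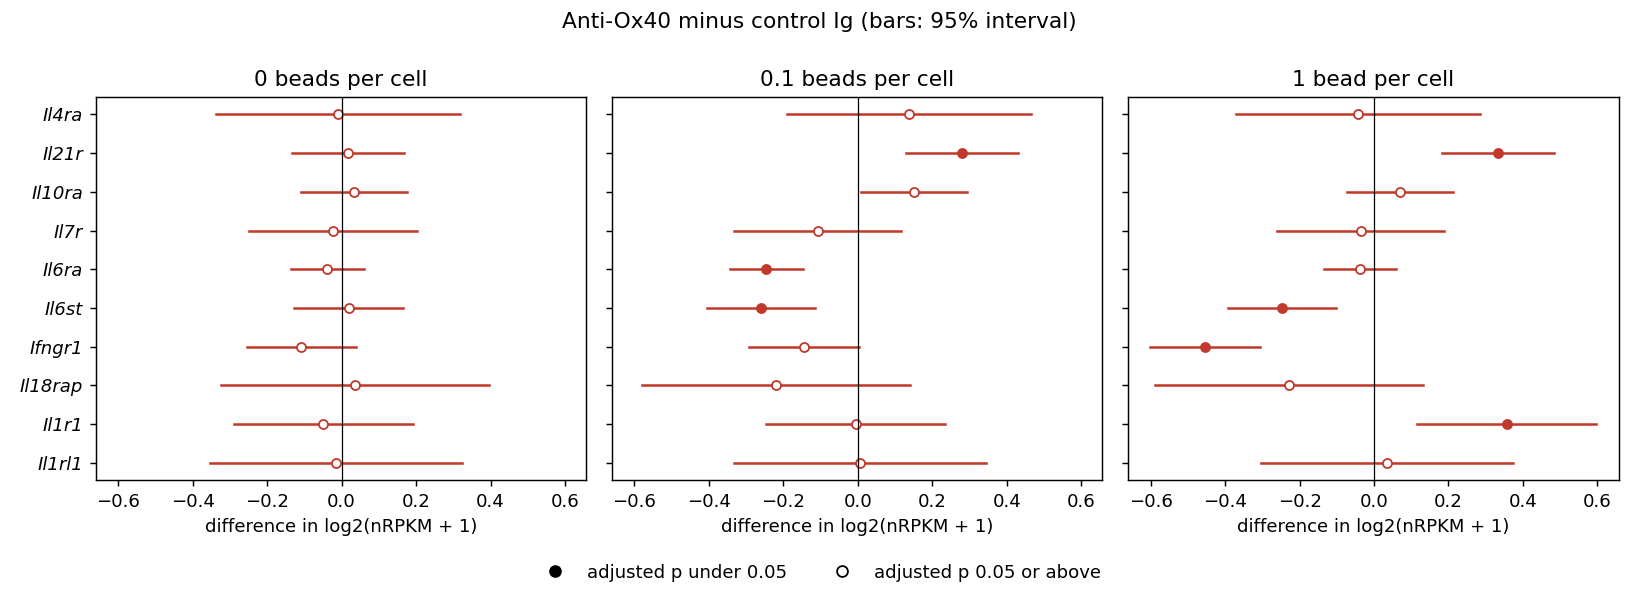
Difference in log2(nRPKM + 1) of anti-Ox40 minus control Ig for each gene at 0, 0.1 and 1 beads per cell, with 95% intervals; filled points had an adjusted p under 0.05. Without beads every interval includes 0, and with high beads Il21r (0.33) and Il1r1 (0.36) stand above 0 and Il6st (-0.25) and Ifngr1 (-0.45) below.

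Whether the antibody difference depended on the bead dose was tested directly. Between high and no beads, 1 of the 10 genes was called against a background of 11.1%: the Ifngr1 difference was 0.35 lower on the log2 scale with high beads (-0.35, SE 0.10, limma adjusted p = 0.0346). Il21r had 0.32 (SE 0.10, adjusted p = 0.0537). The Ifngr1 call was lost without the 6 libraries rich in B cell markers (-0.35, limma adjusted p = 0.207) and under other settings given below. Without those 6 libraries 7 genes of all tested were called in place of 1451. Between low and no beads none was called (0.268% of all genes; 35 genes, and 2307 at an unadjusted p under 0.05), nor between high and low beads (3.17%; 414 genes, and 2638 at an unadjusted p under 0.05).

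The other genes of these pathways were taken from fixed lists. Of 7 cytokine genes tested among 17 whose products bind these receptors or their partners, 6 were called with high against no beads in control Ig, all higher, beside 82.3% of all genes called and 43.4% higher. Il21 and Il13 were below 1 nRPKM in every library without beads and so entered the test through the bead groups, which favours an increase. The count is therefore only a description. Il21 rose from 0.453 ± 0.0863 to 20.3 ± 5.02 nRPKM (log2 difference 3.85, limma adjusted p = 6.94e-12), Il4 from 2.52 ± 0.380 to 17.3 ± 0.835 (2.39) and Il13 from 0.281 ± 0.0385 to 23.5 ± 1.24 (4.25). Lif, of the IL-6 family, rose from 0.976 ± 0.0871 to 20.9 ± 0.525 (3.47). Ifng was not called (2.62 ± 0.723 and 1.66 ± 0.656, adjusted p = 0.0897). With anti-Ox40, 4 cytokine genes were called at low beads and 4 at high beads, all higher, beside 6.15% and 14.4% of all genes higher. Il21 had 4.96 ± 1.25 nRPKM against 1.52 ± 0.596 with low beads (1.25, adjusted p = 0.00122) and 70.7 ± 3.64 against 20.3 ± 5.02 with high beads (1.78, adjusted p = 1.63e-05). Lif was higher with anti-Ox40 by 0.53 with low beads (adjusted p = 0.00458) and by 1.07 with high beads (adjusted p = 3.67e-06).

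**Figure D4:**
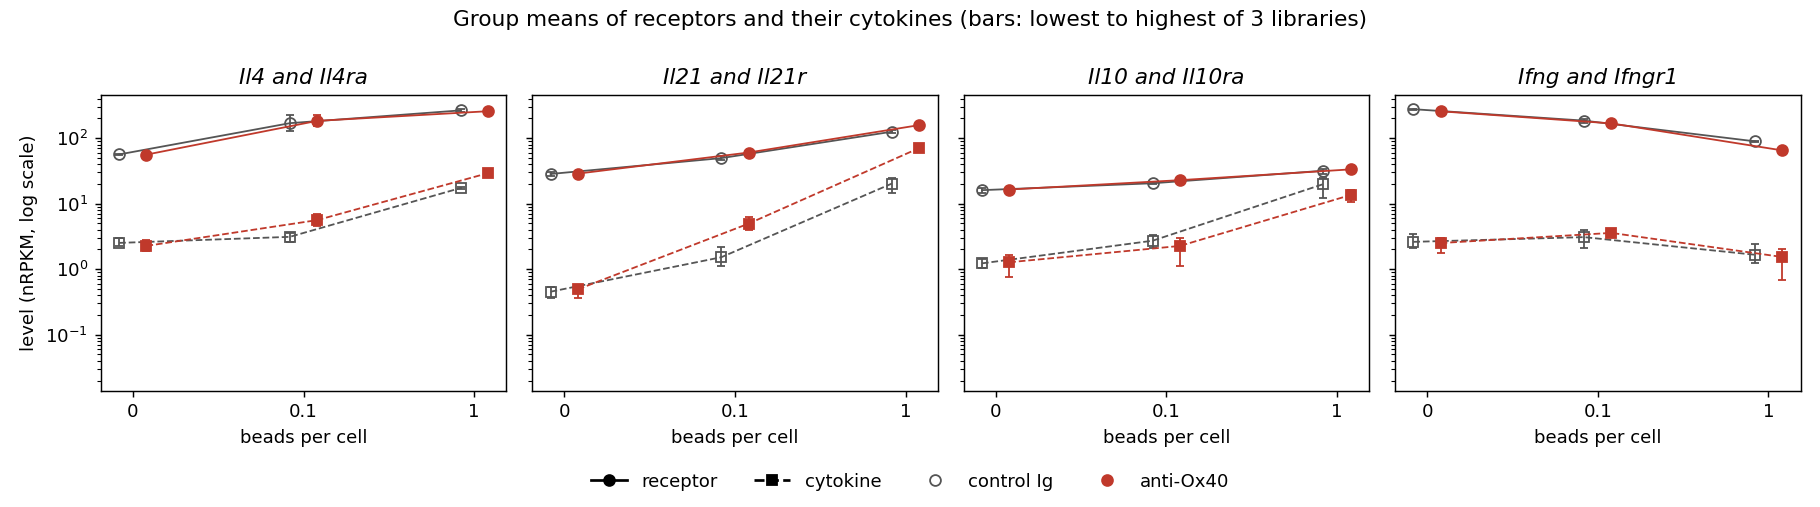
Group means (nRPKM, log axis) of 4 cytokine genes (squares, dashed) and of the receptor chain that binds each (circles, solid) by bead dose, open grey for control Ig and filled red for anti-Ox40, with bars from the lowest to the highest of 3 libraries. With high beads Il21 reached 20.3 in control Ig and 70.7 with anti-Ox40 while Il21r reached 126 and 158, and Ifngr1 fell to 89.5 and 65.1 while Ifng stood at 1.66 and 1.54.

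Of 9 partner chains tested, 1 was higher (Crlf2, a chain that pairs with Il7r in the TSLP receptor, log2 difference 0.61) and 6 were lower with high beads in control Ig, beside 43.4% and 38.9% of all genes. Among the lower were Il11ra1 (-0.89) and Il27ra (-0.37). The common gamma chain Il2rg, used with Il4ra, Il7r and Il21r, was not called (259 ± 9.84 and 250 ± 15.6 nRPKM, limma adjusted p = 0.417). With anti-Ox40 and high beads, Crlf2 (-0.47, adjusted p = 0.000403) and Il10rb (-0.19) were lower and Il2rg was higher (0.20, adjusted p = 0.025). No partner chain was called for the antibody with low beads, where 9.59% of all genes were. The median over the 9 was -0.32 with high against no beads, beside 0.04 over all genes. Il13ra1 reached 1 nRPKM in all control Ig libraries without beads, but with beads only in the anti-Ox40 group at the low dose. It thus entered the test through libraries without beads, which favours a decrease. The counts and the median that include it are therefore only a description.

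The 15 kinases, STAT factors and MyD88 pathway genes were called with high against no beads in control Ig, 7 higher and 8 lower, where 82.3% of all genes were called. Jak3, the kinase bound to the common gamma chain, rose from 53.5 ± 3.01 to 205 ± 5.61 nRPKM (log2 difference 1.92, limma adjusted p = 3.24e-13), and Jak1, which many of these receptors share, fell from 264 ± 9.32 to 112 ± 7.30 (-1.24, adjusted p = 1.18e-12). Irak2, a kinase of the MyD88 pathway, fell (-1.07). With anti-Ox40 and high beads 4 were higher and 5 lower, beside 14.4% and 11.6% of all genes, led by Stat5a (39.6 ± 4.06 nRPKM in control Ig and 63.5 ± 4.79 with anti-Ox40, 0.67, adjusted p = 4.9e-05) and Jak1 (-0.26). With low beads none of the 15 was called for the antibody, where 9.59% of all genes were.

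Among 14 genes for feedback, decoy receptors and shedding, 9 were higher and 4 lower with high beads in control Ig, again beside 82.3% of all genes called. Cish, a STAT5-induced inhibitor, rose from 34.4 ± 4.15 to 180.0 ± 6.95 nRPKM (2.36), Ptpn6 (0.95) and Ptpn2 (0.84) rose, and Pias1 fell (-0.81). Il1r2, the decoy receptor for IL-1, was higher with anti-Ox40 and low beads (10.1 ± 3.31 against 4.81 ± 1.01 nRPKM, log2 difference 0.91, limma adjusted p = 0.0385). Without beads its difference was as large and not called (2.78 ± 0.463 against 1.01 ± 0.103, 0.91, adjusted p = 0.405), although the libraries did not overlap. With high beads Il1rn was higher (1.00) and Pias1 lower (-0.17).

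Of 15 tested among 21 other interleukin, interferon and TGF-beta receptor genes, 4 were higher and 9 lower with high beads in control Ig, a share of calls near the 82.3% of all genes. Il23r reached 1 nRPKM only in libraries without beads and so entered the test through them, which favours a decrease. The counts that include it are therefore only a description. Il12rb1 (3.31) and Il12rb2 (2.42), the chains of the IL-12 receptor, rose, and Tgfbr2 (-1.34) and Il17ra (-1.22) fell. Ifnar1, a chain of the type I interferon receptor, was lower with anti-Ox40 at low (-0.21, limma adjusted p = 0.0116) and high beads (-0.35, adjusted p = 5.62e-05), and Tgfbr2 was lower with high beads (-0.27).

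Genes whose levels followed each receptor most closely are given as Pearson's r of log2 values over the 18 libraries, all of which share the bead dose. Il21r was followed by Canx, Hsp90ab1 and Batf (r = 0.998, 0.997 and 0.997), Il4ra by Senp1, Rfc3 and Bckdk (0.994, 0.993 and 0.992), and Il10ra by Plod2, Pgm2 and Hk1 (0.988, 0.986 and 0.985). Il7r was followed by Mical2, Rgl1 and Hs3st3b1 (0.993, 0.993 and 0.992), Il6ra by Znrf2, Ccdc125 and Fam65a (0.996 each), and Il6st by Cd27, Crebzf and Pla2g4b (0.990, 0.988 and 0.988). Ifngr1 was followed by Card6, Ypel3 and Pacs1 (0.996 each), and Il18rap by its partner Il18r1, then Abca7 and Smarca2 (0.993, 0.992 and 0.992). Il1r1 was followed by Gpsm1 (0.962) and Acsl1 (0.960). Il1rl1, which was not called between bead doses, had lower values (Cyfip1 0.806, Ptplad1 0.780, Gzmk 0.769).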

How the data were processed

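RNA from 18 libraries was sequenced, 3 in each of 6 groups. The authors deposited 1 table of nRPKM values, which are RPKM values with a further normalization between libraries. The aligner was GSNAP and the genome GRCm38 (per the submitters' processing notes). How reads were counted and libraries normalized is not given in the sources used here. Read numbers were estimated from the values of short genes of known length and cover counting error only. The labels do not say whether replicates are separate mice or cultures, so the spread behind each p-value may be technical. Replicate numbers follow accession order, and the labels tie them to no shared source of cells, although number 3 had the most B cell marker RNA in every group.

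Genes with at least 1 nRPKM in at least 3 of 18 libraries (13075, all 10 receptor genes among them) were fitted as log2(nRPKM + 1) with limma 3.58.1 in R 4.3.3, with 1 mean per group, a variance trend and 12 residual degrees of freedom. The test was 2-sided, with Benjamini-Hochberg adjustment over all genes tested and a call at an adjusted p under 0.05. Fold changes of low genes are understated on this scale. The fit was tested on simulated data.

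All 10 genes were fitted in every comparison. From 5 lists (partner chains, ligands, kinases with STAT and MyD88 genes, feedback and decoys, other receptors) the members with the smallest adjusted p were named, up to 4 in control Ig for high against no beads, and up to 2 for the antibody at low and at high beads. Other list members named (Il2rg, Ifngr2, Ifng) were chosen for their pairing with a receptor. The 3 tested genes most correlated with each receptor were also named. A few genes chosen by these rules are not reported here. The genes and lists were chosen with earlier results of these data known. Alternatives were other pseudocounts, filters and scalings, no trend, only the groups compared, and each library left out, and, added after seeing the data, a replicate block and a fit without the 6 libraries rich in B cell markers.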

Additional observations from a re-analysis of the deposited data

Results flagged for a closer look

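The antibody difference of Ifngr1 was not the same with high beads as without. It was -0.11 on the log2 scale without beads and -0.45 with high beads, and the test of the difference itself gave -0.35 (95% interval -0.55 to -0.14, limma adjusted p = 0.0346). This call was lost without a filter on low genes (adjusted p = 0.0743), without the 6 libraries rich in B cell markers (-0.35, adjusted p = 0.207) and when any 1 of 8 of the 12 libraries involved was left out (0.0528 to 0.0987): control Ig no-bead replicates 1, 2 and 3, anti-Ox40 no-bead replicates 1 and 3, control Ig high-bead replicates 2 and 3, and anti-Ox40 high-bead replicate 1.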

How the results depend on the processing

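Of 120 results (10 genes in 12 comparisons), 60 were called and 53 of these stayed called under every setting run for them. Of the 52 called bead results, 51 were called under every setting, the exception being Il4ra between low and high beads with anti-Ox40. The Il4ra antibody difference with low beads, which was not called, ran from -0.029 to 0.37 as each of the 6 libraries compared was left out. The labels give no replicate number, and the accession-order numbers were used as a replicate block only after seeing the data. Deviations from the group means correlated at -0.16 to 0.35 over the 45 pairs of same-numbered libraries from different groups and at -0.28 to 0.20 over the 90 other pairs, and 14 of 18 libraries correlated best with their own number in every other group, a hint from the data and not from the design. With the replicate block no call of a receptor gene was lost. Il1rl1 was then called in control Ig for low against no (0.27, adjusted p = 0.0255) and high against low beads (-0.30, 0.0124), and with anti-Ox40 likewise (0.29, 0.0149, and -0.27, 0.0215). Il1r1 was called for high against low beads with anti-Ox40 (0.21, 0.0441), and the antibody difference of Il1r1 (0.41, 0.0428) and Il6st (-0.27, 0.0127) changed from no to high beads. The replicate block moved the genes called for the antibody without beads from 18 to 59, the genes whose antibody difference changed from low to high beads from 414 to 692, and the receptor genes among those that changed from no to high beads from 1 to 3.

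The number of genes called for the antibody without beads (18) was 86 with a pseudocount of 0.1, 9 without a filter, 10 without a trend, 3 with only the groups compared, 0 without the libraries rich in B cell markers and 0 to 30 with 1 library left out. With low beads (1254) it was 557 without a filter, 45 with only the groups compared, 24 without the libraries rich in B cell markers and 131 to 3522 with 1 left out, and of the 10 receptor genes 1, 0, 0 and 0 to 4 were called in place of 3. With high beads (3397) it was 1387 without the libraries rich in B cell markers and 2065 to 3363 with 1 left out, and 2 to 4 receptor genes were called. The count of genes whose antibody difference changed from no to low beads (35) was 17 with only the groups compared, 1 without the libraries rich in B cell markers and 19 to 1866 with 1 left out (0 to 2 receptor genes). From low to high beads (414) it was 263 without a filter, 152 with only the groups compared, 3 without the libraries rich in B cell markers and 102 to 1243 with 1 left out (0 to 1 receptor genes). From no to high beads (1451) it was 966 without a filter, 7 without the libraries rich in B cell markers and 602 to 1743 with 1 left out. There the 1 receptor gene became 0 without a filter, 2 with a filter at 3 nRPKM, 2 with only the groups compared, 0 without the libraries rich in B cell markers and 0 to 3 with 1 left out. Leaving out libraries leaves 2 per group in places, and the spread is then taken from all groups. The fit without the libraries rich in B cell markers leaves 2 in every group, so it also rests on fewer libraries. The cause of these shifts was not tested.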
